A study of Mus musculus with 8 samples.

Results

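The cells described here are Kera and Tnmd positive tendon-like fibroblasts of mouse bone, 393 of 45328 cells. They were picked by their transcripts, so the level of the picking genes is a description and is not tested. Cells with 500 to 6000 genes and at most 25% of their unique molecular identifiers (UMIs, each standing for 1 captured transcript) from mitochondrial genes were kept. Among them, members held at least 3 UMIs of Kera and Tnmd in sum, 0 UMIs of Cdh5 (endothelium) and of Ptprc (blood), fewer than 100 UMIs of osteocalcin (Bglap and Bglap2) and fewer than 40 UMIs of the cartilage genes Acan, Hapln1 and Matn3 per 10000 UMIs of the cell. Of 825 cells that reached 3 UMIs of Kera and Tnmd, 387 were over the cartilage limit, all of them in Fracture, 59 held Cdh5, 7 were over the osteocalcin limit and 1 held Ptprc, some of them for more than 1 reason.

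Droplet-based single-cell RNA sequencing was performed on bone stromal cells of wild-type C57BL/6 female mice. In the Fracture group the left leg had been broken by three-point bending at 10 weeks of age and held by an intramedullary nail, and bone was taken on day 14 of healing. The Control group was unfractured bone of 12-week-old females. According to the methods, femurs were cleaned of attached tissue and blood lineage cells were depleted with magnetic beads, a step described in full for other libraries of the study. Each group held 2 cell preparations and each preparation 2 libraries, which are read here as draws from 1 suspension and were summed, so n = 2 preparations per group. No label says that preparations came from separate animals, so p-values speak of preparations only. With 2 preparations per group the spread of a single gene is poorly measured. The edgeR test used below leans on a spread estimated over many genes, and its very small p-values are to be read with that limit.

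Tendon fibroblasts lay down parallel bundles of type I collagen that carry muscle force to bone, and they enter bone at the enthesis through fibrocartilage. Scleraxis (Scx) and Mohawk (Mkx) are the transcription factors best known for the tendon programme. Keratocan (Kera) is a small leucine-rich proteoglycan that binds collagen fibrils, and tenomodulin (Tnmd) is a membrane glycoprotein of mature tenocytes and a relative of the cartilage protein chondromodulin, here under its older symbol Lect1. In GRCm38 coordinates Kera lies at chr10:97606879-97613692 on the plus strand and Tnmd at chrX:133850980-133865577 on the plus strand. Thrombospondin 4 (Thbs4, chr13:92751590-92794818, minus strand) and Scx (chr15:76457452-76459458, plus strand) were not used to pick the members, and neither was Tppp3 (chr8:105467493-105471526, minus strand), a marker of the sheath and paratenon.

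The libraries held between 56543151 and 89126291 UMIs, and the kept cells a median of 7170 to 8685 UMIs in Control and 10640 to 12708 in Fracture. Members were shallower than that, with median UMIs of 5206 and 6790 in Control 1 and 2 and of 9139 and 10296 in Fracture 1 and 2. Summed over members this gave 124286 UMIs in Control and 3957793 in Fracture, so a count of 0 in Control allows up to 24.1 UMIs per 1000000 (3 counts, counting error only), and smaller values were not detectable there. Median mitochondrial shares of the members were 5.18% for Control and 2.66% for Fracture. Libraries from the same preparation shared 13 to 23 cell barcodes, none of them in a member, and 4 members were called as doublets, 3 in Fracture 1 and 1 in Fracture 2.

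Among the members, 102 held Kera and no Tnmd, 151 held Tnmd and no Kera, and 140 held both. Of the 22 members of Control 3 were Kera-only, 15 Tnmd-only and 4 held both. The 371 members of Fracture split into 99, 136 and 136. The sum of Kera and Tnmd per member had a median of 5.5 UMIs (3 to 24) in Control and of 6 UMIs (3 to 64) in Fracture. In plain counts per 1000000 UMIs of all members of a preparation (CPM), Kera stood at 268, 109.6, 344 and 289 and Tnmd at 1094, 621, 576 and 620.2 in Control 1, Control 2, Fracture 1 and Fracture 2. Tnmd was not restricted to the members, since the Fracture cells over the cartilage limit held 3086 UMIs of Tnmd and 158 of Kera.

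The name tendon-like was checked with 6 markers that the picking did not use (Thbs4, Tppp3, Scx, Mkx, Fmod and Comp), after each cell was thinned to 3000 UMIs. Cells were compared with 615 fibroblasts that held at least 3 UMIs of Clec3b, Dpt and Mfap5 in sum and were negative for Kera and Tnmd. The other classes were 749 Prg4-positive fibroblasts negative for Kera and Tnmd, and 5264 endothelial cells holding at least 2 UMIs of Cdh5 as a level for free RNA. The endothelial cells held 0 UMIs of Ptprc but, unlike the members and both fibroblast classes, had no osteocalcin or cartilage limit. At least 3 of the 6 markers were found in 63.2% of Control and 72.5% of Fracture members, in 12.8% and 31.1% of the Clec3b Dpt Mfap5 fibroblasts, in 39.1% and 56.3% of the Prg4 fibroblasts and in 0.345% and 3.30% of the endothelial cells. The median was 4 markers in Control and 3 in Fracture members, and 2 and 3 in the Prg4 fibroblasts, the same as members in Fracture. It was 1 and 2 in the Clec3b Dpt Mfap5 fibroblasts and 0 and 1 in the endothelial cells. None of the 6 was found in 15.8% of the 19 thinned Control members and in 1.08% of Fracture members, against 19.2% and 5.69% of the Clec3b Dpt Mfap5 fibroblasts and 2.5% and 2.7% of the Prg4 fibroblasts. Among the 13 thinned Tnmd-only members of Control the share with none was 23.1%.

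Thbs4, a matrix glycoprotein that spaces collagen fibrils, was found in most members, in fewer of the other fibroblasts and in few endothelial cells. It was detected in 73.3% and 50% of thinned members of Control 1 and 2 and in 70.9% and 68.4% of those of Fracture 1 and 2, against 0.639%, 0.214%, 2.28% and 2.37% of endothelial cells. Prg4 fibroblasts held it in 36.7%, 26.4%, 43.0% and 43.9% of cells and Clec3b Dpt Mfap5 fibroblasts in 20%, 8.70%, 24.8% and 28.2%. Before thinning, 16 of 22 Control and 300 of 371 Fracture members held it. Scx was found in 53.3%, 50%, 35.4% and 34.7% of members, in 8.87%, 8.33%, 26.4% and 22% of Prg4 fibroblasts and in at most 1.11% of endothelial cells. Mkx was sparse in Fracture, with 20%, 25%, 3.43% and 4.08% of members. Tppp3 did not mark the members: it was found in 26.7%, 25%, 40.6% and 38.8% of them but in 63.6%, 69.6%, 44.9% and 45.4% of the Clec3b Dpt Mfap5 fibroblasts, and in 6.11% to 8.22% of endothelial cells.

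The matrix genes Fmod and Comp were widespread in Fracture members and also carried a high background there. Fibromodulin (Fmod, chr1:134037254-134048277, plus strand), a proteoglycan that guides collagen fibril growth, was found in 86.7%, 50%, 80.6% and 81.1% of members and in 5.48%, 1.29%, 20.3% and 21.0% of endothelial cells. Cartilage oligomeric matrix protein (Comp, chr8:70373558-70382066, plus strand) was found in 60%, 50%, 89.1% and 86.2% of members and in 18.9%, 6.97%, 55.0% and 52.5% of endothelial cells. The levels in Fracture members, 2014 and 2273 CPM for Fmod and 3621 and 3676 CPM for Comp, were above the 335 and 352 CPM and the 2406 and 2069 CPM of the endothelial cells. Thinned cells over the cartilage limit held Fmod in 93.3%, 87.5%, 87.0% and 88.6% and Comp in 99.6%, 99.4%, 99.8% and 99.8%. These 2 genes therefore do not set members apart from cartilage cells. Thbs4 was found in 5.91%, 5.78%, 5.66% and 6.26% of the cells over that limit, and Scx in 1.55%, 1.54%, 2.87% and 3.48%.

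In Fracture, cells just outside the limit of 3 UMIs resembled those just inside it. There Thbs4 stood at 508 CPM in cells with 1 UMI of Kera or Tnmd, at 1028 CPM with 2 UMIs, at 908 CPM with 3, at 940.1 CPM with 4, at 1483 CPM with 5 to 9 and at 2902 CPM with 10 or more. Scx followed with 104, 152, 142, 115, 193 and 281 CPM. Fmod stood at 1459, 1710, 2174, 1886, 1873 and 2594.5 CPM, and Mkx at 8.39, 10.3, 10.4, 12.6, 6.77 and 14.5 CPM. Comp went the other way, with 5085, 4472.5, 5158, 4399, 2898.5 and 3331 CPM. Tppp3, with 305, 508, 387, 293, 412 and 377 CPM, was not highest with 10 or more UMIs either. In Control, where cells were few, the levels differed across the limit. The 22 Control cells with 2 UMIs held Thbs4 at 600.7, Fmod at 638 and Comp at 37.1 CPM, and the 7 cells with 3 UMIs held them at 1857, 2419 and 6621 CPM. In Fracture the members are therefore the upper end of a range of Kera and Tnmd, in which Thbs4 and Scx but not Comp and Tppp3 were highest at the top. There 115 Fracture cells lay 1 UMI below the limit and 75 on it.

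Tendon-like fibroblasts were sparse among the stromal cells of unfractured bone and reached 1.5% of those of fractured bone. Shares are of the kept cells after the depletion of blood cells. They were 10 of 6449 cells (0.155%, 95% exact binomial interval 0.0744 to 0.285) and 8 of 6306 cells (0.127%, 0.0548 to 0.250) in the libraries of Control 1, and 0 of 4077 cells, which allows up to 0.0736%, and 4 of 3844 cells (0.104%, 0.0284 to 0.266) in those of Control 2. They were 99 of 5798 cells (1.71%, 1.39 to 2.07) and 76 of 6069 cells (1.25%, 0.988 to 1.56) in Fracture 1, and 107 of 6366 cells (1.68%, 1.38 to 2.03) and 89 of 6419 cells (1.39%, 1.11 to 1.70) in Fracture 2. The libraries of the groups did not overlap.

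Per preparation, members were 0.141% and 0.0505% of Control cells (0.0958% ± 0.0641, SD, n = 2) and 1.47% and 1.53% of Fracture cells (1.5% ± 0.0413, n = 2), a difference of 1.41 percentage points (two-sided exact permutation test, p = 0.33, the smallest this design can give). The difference was 1.4 points without the members holding Rgs5 and Myh11. A count of UMIs reads depth, and Fracture cells were deeper. When every cell was thinned to 3000 UMIs before the rule was applied, the shares were 0.0976%, 0.0149%, 0.700% and 0.642%, a difference of 0.615 points. The intervals cover counting error only.

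**Figure D1:**
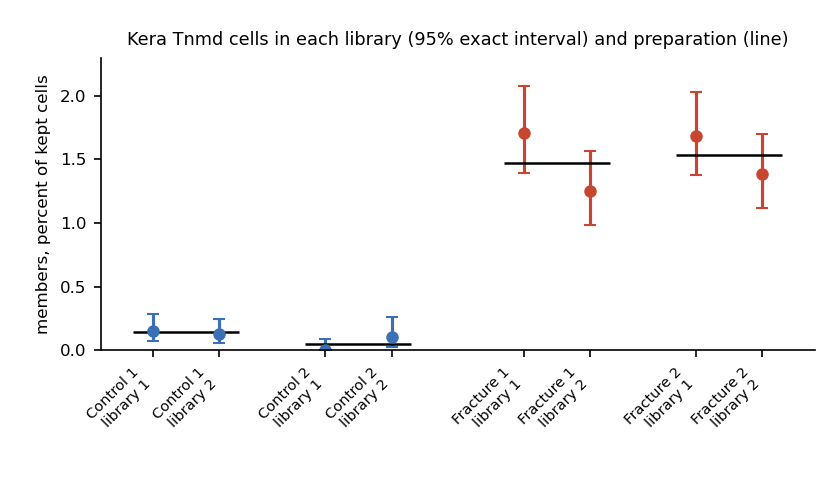
Tendon-like fibroblasts as a percent of the kept cells of each library (vertical axis) for the 4 Control and 4 Fracture libraries (horizontal axis). Points are libraries with their 95% exact binomial interval and lines mark each preparation. Control libraries lie at or below 0.155%, and Fracture libraries at 1.25% or above.

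Members varied widely among themselves. In Fracture, Thbs4 had a median of 8.51 per 10000 UMIs of the cell with quartiles of 1.49 and 24.1 and a highest value of 285, and Fmod a median of 17.4 with quartiles of 5.34 and 33.5. In Control, Thbs4 had a median of 60.8 with quartiles of 0.411 and 132. Few cells stand behind the values of Control: in Control 2, which had 4 members, 1 cell held 82.2% of the Thbs4 UMIs and 84.6% of the Scx UMIs. Members with at least 3 UMIs of the smooth muscle and pericyte genes Rgs5 and Myh11 in sum were 6 of 22 in Control and 9 of 371 in Fracture. The 6 in Control, 4 in preparation 1 and 2 in preparation 2, were all Tnmd-only. The main results of Fracture against Control are also given without these cells.

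Compared with the Clec3b Dpt Mfap5 fibroblasts, connective tissue fibroblasts without Kera and Tnmd, tendon-like cells were higher in some tendon matrix genes and lower in some complement, chemokine and Wnt pathway genes. UMI counts were summed per preparation and class. The classes were compared by edgeR's quasi-likelihood test, in which the preparation entered as a block and p was adjusted over all genes by Benjamini-Hochberg. Of 8768 genes, 51 (0.582%) were called at an adjusted p under 0.05, 16 higher (0.182%) and 35 lower (0.399%) in members. The fitted log2 difference had a median of -0.03 over all genes.

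Of 27 measured tendon matrix and marker genes 4 were called, all higher in members, and 23 of the 27 were above 0, with a median log2 difference of 1.24. Thbs4 stood at 7677, 3909.5, 1908 and 1626 CPM in members and at 202, 22.4, 266 and 323 CPM in the other fibroblasts of Control 1, Control 2, Fracture 1 and Fracture 2. It was higher in members of 4 of 4 preparations (log2 difference 4.11 ± 0.61, SE, edgeR adjusted p = 0.0113). Ptx4 (chr17:25120760-25125292, plus strand), a long pentraxin, stood at 495, 219, 15.5 and 11.3 CPM in members. It was nearly absent from the other fibroblasts, with 3 UMIs in all or 0, 0, 0.740 and 0.329 CPM. The ratio of pooled CPM was 57.0 (95% counting interval 19 to 281, edgeR adjusted p = 0.000317).

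The cartilage intermediate layer proteins, which are matrix proteins of fibrocartilage and tendon, were also higher in the members of every preparation. Cilp2 (chr8:69880369-69887687, minus strand) stood at 1352, 548, 154 and 136 CPM against 182, 109, 8.14 and 15.1 CPM (log2 difference 3.08, adjusted p = 0.00417). Cilp stood at 2579.5, 1681, 265 and 381 CPM against 646, 277, 89.5 and 158 CPM (1.72, adjusted p = 0.00559). The transcription factor Foxp2 was low in both but higher in members (1.92, adjusted p = 0.0113).

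None of 8 measured tendon transcription factors and none of 16 collagens was called. Scx stood at 794, 475, 188 and 212 CPM against 12.3, 14.0, 98.8 and 100.4 CPM (log2 difference 2.45, adjusted p = 0.161), higher in members of 4 of 4 preparations but by very unequal amounts in the groups. Fmod differed by 2.57 (adjusted p = 0.0661) and Comp by 1.70 (adjusted p = 0.0643) on the log2 scale, and Tppp3 by -0.95 (adjusted p = 0.42). In the Fracture preparations alone, a comparison chosen after seeing the data, 1056 of 10735 genes were called (9.84%), 564 higher (5.25%) and 492 lower (4.58%), among them all 51 genes above in the same direction (100% of the 51 and 4.83% of the 1056). There 13 of 16 collagens were higher and 1 was lower, with a median of 0.36, and 3 of 8 tendon transcription factors were higher and 1 was lower. Scx was among the higher (1.12, edgeR adjusted p = 1.82e-20), and the Thbs4 difference was 2.7.

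Of 19 inflammatory and chemokine genes 5 were called, all lower in tendon-like cells, and 14 were not. The 5 were the chemokines Cxcl1, Cxcl5 and Cxcl9 and the complement genes C3 and C4b. Cxcl5, a neutrophil chemoattractant, stood at 10.3, 0, 1.72 and 28.5 CPM in members and at 87.9, 92.3, 178 and 357 CPM in the other fibroblasts (log2 difference -4.36, adjusted p = 0.00301). C3, the central complement component, stood at 20.6, 73.1, 114 and 129.7 CPM against 304, 146, 456 and 577 CPM (-2.20, adjusted p = 0.0113). Both genes were lower in members of 4 of 4 preparations.

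Some Wnt pathway and marrow stromal genes were lower as well. Of 12 Wnt ligands and antagonists 3 were called, with a median log2 difference of -0.10 over the 12, close to that of all genes, and in Fracture alone 2 were higher and 4 lower. The 3 genes called were all lower: the antagonists Sfrp1 (log2 difference -2.20, adjusted p = 0.000973) and Sfrp4 (-2.69, adjusted p = 0.0485) and the Wnt enhancer Rspo3 (-1.55, adjusted p = 0.0414). Sfrp4 stood at 248, 0, 63.6 and 94.9 CPM in members and at 1596, 2084, 324 and 318 CPM in the other fibroblasts. Of 11 marrow stromal genes 2 were lower, haptoglobin (Hp, 20.6, 0, 30.4 and 72.3 CPM against 73.6, 758, 312 and 913 CPM, adjusted p = 0.00375) and the adipokine Adipoq (adjusted p = 0.00567). Among 18 fibroblast genes Scara5 and C3 were lower and none was higher. Emilin2, an elastic fibre glycoprotein, was the 1 of 15 elastic fibre genes called and was lower (-2.12, adjusted p = 0.00652).

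The Control fibroblasts of this comparison had a high level of Ctla2a, 1 of 12 genes on the list of endothelial markers. The summed level of the 12 was 2656 and 3618 CPM in their Control preparations and 65.9 and 55.6 CPM in Fracture, against 58.7 to 134 CPM in the members. Most of the Control sum was Ctla2a, at 2241 and 2843 CPM. The 21 blood cell markers summed to 2989, 1967, 335 and 3593 CPM in these fibroblasts of Control 1, Control 2, Fracture 1 and Fracture 2. In members they summed to 444, 329, 926 and 1412 CPM. The part of endothelial and blood transcripts in the result was not tested. The count of calls depended on single preparations, with 217 genes without Control 1, 91 without Control 2, 0 without Fracture 1 (edgeR, 273 genes at an unadjusted p under 0.05) and 3 without Fracture 2.

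Compared with fibroblasts positive for Prg4, the lubricin gene known from the joint lining, tendon-like cells were higher in Scx and Mkx and in some tendon matrix, microfibril and growth factor genes. They were lower in 7 of 12 lining genes and in some glycolysis genes. Of 9918 genes 487 were called (4.91%), 239 higher (2.41%) and 248 lower (2.5%) in members. The median log2 difference over all genes was -0.05. The Prg4 fibroblasts of Control also held cartilage transcripts. Sox9 was found in 56.5%, 61.1%, 37.8% and 33.2% of thinned Prg4 fibroblasts and in 0%, 0%, 33.1% and 33.7% of members. At least 5 UMIs of Col2a1 were held by 35% of Control and 22.4% of Fracture Prg4 fibroblasts, against 0% and 23.5% of members. The part of such transcripts in this comparison was not tested.

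Scx and Mkx were the tendon transcription factors called, 2 of 10 and both higher. Scx stood at 794, 475, 188 and 212 CPM in members and at 31.2, 23.0, 133 and 96.1 CPM in Prg4 fibroblasts (log2 difference 2.14 ± 0.48, edgeR adjusted p = 0.012). Mkx stood at 61.9, 146, 10.3 and 10.8 CPM against 14.7, 6.91, 5.72 and 3.89 CPM (1.6 ± 0.40, adjusted p = 0.0241). Both were higher in members of 4 of 4 preparations, and both lost the call without Control 2, Mkx also without Fracture 2.

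Of 28 tendon matrix and marker genes 11 were higher and 4 were lower in members. Ptx4 was at 0 CPM in the Prg4 fibroblasts of all preparations. Chondrolectin (Chodl), a C-type lectin, stood at 619, 877, 44.7 and 28.9 CPM in members against 0, 0, 0 and 2.33 CPM (log2 difference 7.92, adjusted p = 1.07e-07). Thbs4 was higher in members, at 7677, 3909.5, 1908 and 1626 CPM against 252, 168, 802 and 795 CPM in Prg4 fibroblasts (2.69, adjusted p = 0.00424; not called without Control 2). The microfibril glycoprotein Mfap4 stood at 681, 73.1, 154 and 122 CPM in members against 0, 0, 10.0 and 10.9 CPM (4.91, adjusted p = 1.67e-05), and the carboxypeptidase-like Cpxm2 at 681, 219, 194 and 156 CPM against 26.8, 10.4, 19.1 and 13.6 CPM (3.77, adjusted p = 4.02e-08). The 4 lower genes were Cilp, Angptl7, the Wnt antagonist Wif1 and chondroadherin (Chad), a collagen-binding protein that stood at 1579, 840.4, 124 and 136 CPM in members and at 3892, 4493, 436 and 304 CPM in Prg4 fibroblasts (-1.84, adjusted p = 0.00244).

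Microfibril genes and proteoglycans were the other matrix groups with several higher genes, while of 16 collagens Col12a1 alone was higher and of 26 collagen processing genes none was higher and 2 were lower. In the Fracture preparations alone, 12 of the 16 collagens were higher and 1 was lower, and 6 of the 26 processing genes were higher and 7 lower. Over all 10413 genes of that fit 8.08% were higher and 7.23% lower. Of 15 elastic fibre and microfibril genes 6 were higher (Fbn2, Fbln1, Fbln5, Mfap2, Mfap4 and Ltbp1) and 1 lower (Emilin2), with a log2 difference of 2.2 for fibrillin 2 (Fbn2, adjusted p = 7.57e-06). Of 14 small leucine-rich proteoglycans 4 were higher and Chad was lower. Osteoglycin (Ogn), which regulates collagen fibril width, stood at 969.9, 1681, 1041 and 1033 CPM against 249, 154, 187 and 185 CPM (2.37, adjusted p = 3.91e-05), while Fmod was not called (0.57, adjusted p = 0.453). Periostin (Postn), a matricellular protein of tendon and ligament, stood at 1125, 475, 2522 and 2574 CPM against 10.8, 36.9, 1252 and 1027 CPM (2.63, adjusted p = 0.0204; not called without Control 2). Postn was 1 of 6 activated stroma genes that were higher out of 20, the contractile genes Tagln and Myl9 among them, and fibronectin (Fn1) alone was lower (-1.87, adjusted p = 0.00566). These calls include the 6 of 22 Control members holding Rgs5 and Myh11, and the much lower Tagln of Control without them is given below.

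Growth factor ligands and their binding proteins were called higher for 9 of 24 genes and lower for 2. Pleiotrophin (Ptn), a heparin-binding growth factor, stood at 299, 109.6, 284 and 302 CPM in members and at 3.90, 11.5, 62.9 and 43.2 CPM in Prg4 fibroblasts (log2 difference 3.13, adjusted p = 7.46e-05). Insulin-like growth factor 1 (Igf1) stood at 681, 109.6, 1107 and 1137 CPM against 80.9, 44.9, 190.2 and 242 CPM (2.32, adjusted p = 0.000224), and midkine (Mdk) was higher by 2.31 (adjusted p = 1.94e-05). Piezo2, a mechanically gated ion channel and 1 of 3 mechanosensing genes called out of 23, stood at 82.5, 0, 160.0 and 136 CPM against 3.46, 6.91, 25.3 and 17.9 CPM (2.91, adjusted p = 7.31e-07). Of the TGF-beta and BMP group 1 of 29 was higher and 6 were lower, among them connective tissue growth factor (Ctgf, -1.73, adjusted p = 0.00424).

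Lining genes of the Prg4 fibroblasts were lower in members for 7 of 12 genes and higher for none, with a median log2 difference of -1.84. Prg4 picked the comparison cells and is not counted. The chloride channel protein Clic5 stood at 0, 0, 1.15 and 0 CPM in members and at 71.0, 317, 41.5 and 71.6 CPM in Prg4 fibroblasts, and the growth factor Hbegf at 114, 73.1, 52.2 and 85.4 CPM against 556, 1072, 271 and 420.4 CPM (-2.61, adjusted p = 4.79e-05). Of 18 glycolysis and hypoxia genes 6 were lower and none had a difference above 0, among them pyruvate kinase (Pkm, log2 difference -1.12, adjusted p = 0.0317), which was not called without Fracture 1 or Fracture 2. The neuropeptide Npy and the cytokine-like Cytl1 were high in Control Prg4 fibroblasts, at 680.0 and 970.3 CPM and at 17292 and 10832 CPM, and nearly absent from members at 0 and 0 and at 10.3 and 0 CPM, though Cytl1 lost its call without Control 2. Cytl1 is on the list of cartilage genes.

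The smooth muscle genes Myh11, Mcam, Notch3 and Des were higher in members, 4 of 8 measured. In Control members Myh11 fell from 898 and 2119 CPM to 27 and 0 CPM once the members holding Rgs5 and Myh11 were left out. Without such members 754 genes were called. The count was 759 without Control 1, 313 without Control 2, 287 without Fracture 1 and 265 without Fracture 2.

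Fracture members split by the gene that picked them. Kera-only and Tnmd-only members of the same preparations differed in 841 of 6583 genes (12.8%), 410 higher (6.23%) and 431 lower (6.55%) in Kera-only cells (edgeR, 2 preparations, preparation as a block). The median log2 difference over all genes was -0.02. Most of the measured fibroblast, paratenon and protease genes were higher in Kera-only cells, and most of the cartilage, osteoblast and Wnt genes in Tnmd-only cells, where cartilage and bone transcripts were also found in endothelial cells of the same preparations. Control was too sparse for this comparison, with 3 Kera-only members.

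Of 18 connective tissue fibroblast genes 12 were higher in Kera-only cells and 3 were lower, with a median log2 difference of 1.4. Clec3b, the plasminogen-binding protein tetranectin, stood at 1496 and 943 CPM in Kera-only cells and at 59.8 and 61.1 CPM in Tnmd-only cells of Fracture 1 and 2 (log2 difference 4.24 ± 0.19, adjusted p = 2.08e-06). The stem cell antigen Ly6a stood at 1309 and 1235 CPM against 87.0 and 142 CPM (3.44, adjusted p = 9.63e-06), though reads of Ly6 family genes can be split between near-identical copies. At least 3 UMIs of Dpt and Clec3b were held by 84 of 99 Kera-only members, by 87 of 136 members with both and by 17 of 136 Tnmd-only members.

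Paratenon genes and proteases went the same way. Of 10 synovial and paratenon genes 6 were higher in Kera-only cells and none was lower. Tppp3 stood at 717 and 543 CPM against 94.3 and 153 CPM (log2 difference 2.29 ± 0.22, adjusted p = 0.00018), and the insulin-like growth factor binding protein Igfbp6 at 2502 and 2043 CPM against 389.7 and 579 CPM (2.21, adjusted p = 0.000108). Of 24 matrix proteases and inhibitors 14 were higher and 3 were lower. Stromelysin (Mmp3) stood at 292 and 519.8 CPM against 29.0 and 16.4 CPM (4.23, adjusted p = 3.31e-05).

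The activated stroma gene Lrrc15 was higher in Kera-only cells as well, at 465 and 569 CPM against 87.0 and 135 CPM (log2 difference 2.2, adjusted p = 3.31e-05). So was the proteoglycan versican (Vcan), at 729.7 and 697 CPM against 136 and 179 CPM (2.15, adjusted p = 3.82e-05). Of 16 inflammatory genes 7 were higher and 2 were lower, with C3 higher by 2.15 on the log2 scale. Haemoglobin was higher too (Hbb-bs, 1182 and 2139 CPM against 216 and 582 CPM), a red blood cell transcript that stood at 2184 and 2070.2 CPM in endothelial cells of the same preparations, and its part in the difference was not tested.

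Cartilage genes were higher in Tnmd-only cells for 15 of 17 genes and lower for none, and osteoblast genes for 8 of 10 and none. Matrilin 4 (Matn4), a filament-forming cartilage matrix protein, stood at 2092 and 1480.2 CPM in Tnmd-only cells and at 44.1 and 16.4 CPM in Kera-only cells (log2 difference of Kera-only minus Tnmd-only cells -5.93 ± 0.22, adjusted p = 1.35e-06). Chondromodulin (Lect1, chr14:79637690-79662170, minus strand) stood at 1113 and 1581 CPM against 159.9 and 32.8 CPM (-3.89, adjusted p = 0.000414). Osteomodulin (Omd), a proteoglycan of bone, stood at 576 and 755 CPM against 36.8 and 21.9 CPM (-4.51, adjusted p = 6.18e-06), and bone sialoprotein (Ibsp) at 2984 and 3118 CPM against 180.1 and 217 CPM (-3.97, adjusted p = 1.35e-06).

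Cartilage and bone transcripts also reached the endothelial cells of Fracture, so depth-matched shares were compared. After thinning to 3000 UMIs, at least 5 UMIs of Lect1 were held by 27.2% of Tnmd-only, 1.47% of double-positive and 1.01% of Kera-only members and by 7.09% of endothelial cells. For Matn4 these shares were 39.0%, 4.41%, 0% and 0.826%, and for Omd 12.5%, 0%, 0% and 2.06%. For Ibsp the 11.0% of Tnmd-only cells was close to the 10.5% of endothelial cells, and at least 1 UMI was found in 49.3% and 52.8%. Ibsp in Tnmd-only cells was thus not above the endothelial level in this measure. That level is not a matched background, since the endothelial cells had no osteocalcin or cartilage limit. Under the members' limits, at least 5 UMIs of Ibsp were held by 0% of Kera-only and 2.94% of double-positive members. They were held by 11.6% of Clec3b Dpt Mfap5 and 8.35% of Prg4 fibroblasts of Fracture. Single cells held much of it, with a median of 1.54 and a highest value of 597 per 10000 UMIs in Tnmd-only cells, and 1 member held 29.8% of the Ibsp UMIs of all members of Fracture 1 and 1 member 30.5% in Fracture 2. In counts, 45 of 136 Tnmd-only members held at least 3 UMIs of Lect1, and 34 of these also held Scx or Thbs4. Of the Kera-only members 4 of 99 held as much Lect1, and of the double-positive members 6 of 136.

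Growth factor and signalling genes split as well. Of 13 Wnt genes 8 were higher in Tnmd-only cells and 3 in Kera-only cells. Sfrp4 was among the latter, at 182 and 171 CPM against 5.44 and 21.1 CPM (log2 difference 3.55, adjusted p = 0.000141), and Sfrp5 and Rspo3, with 1 and 2 UMIs in Kera-only cells against 65 and 42, were among the former. Of 23 TGF-beta and BMP genes 4 were higher in Kera-only cells, Tgfbi among them (1.52, adjusted p = 0.000173), and 9 in Tnmd-only cells, among them the antagonist follistatin (Fst, 1.84 and 7.29 CPM against 131 and 101 CPM, adjusted p = 0.00012) and the BMP target Id1 (-2.57). The receptor Fgfr2 was higher there (-3.17, adjusted p = 5.29e-05), and so was the opioid precursor Penk, at 1020.5 and 117 CPM against 1.84 and 0 CPM. Few cells carried Penk, with a median of 0, a 90th percentile of 8.40 and a highest value of 244 per 10000 UMIs among Tnmd-only members of Fracture.

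The tendon genes themselves were divided. Of 25 tendon matrix and marker genes 8 were higher in Kera-only and 12 in Tnmd-only cells. Thbs4 stood at 1673 and 1273 CPM in Kera-only and at 961 and 983 CPM in Tnmd-only cells (0.56 ± 0.14, adjusted p = 0.0282), and Scx at 136 and 171 CPM against 129 and 129 CPM (log2 difference 0.24, 0.17 SE, adjusted p = 0.462). Fmod (-0.79, adjusted p = 0.00275), Comp (-1.16, adjusted p = 0.000339) and Chad (-2.08, adjusted p = 0.00466) were higher in Tnmd-only cells. Members with both genes had the highest Thbs4, at 2910.4 and 2535 CPM, and the highest Scx, at 282 and 325 CPM, values that are given without a test because a cell with more Kera and Tnmd is also more often a cell with both. At least 3 of the 6 tendon markers were found in 86.0% of double-positive, 62.6% of Kera-only and 66.2% of Tnmd-only Fracture members.

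Collagens were divided in the same manner, with 8 of 16 higher in Kera-only cells, namely Col3a1, the type V chains Col5a1, Col5a2 and Col5a3, the type VI chains and Col14a1, and 5 of 16 higher in Tnmd-only cells, namely Col11a1, Col11a2, Col12a1, Col16a1 and Col27a1. Col11a1, a fibrillar collagen of cartilage, stood at 768 and 485 CPM in Kera-only and at 2598 and 2973 CPM in Tnmd-only cells (log2 difference -2.20, adjusted p = 0.000108). Col5a3 stood at 596 and 624 CPM against 143 and 197 CPM (1.81, adjusted p = 8.14e-05). Of 7 smooth muscle genes 5 were higher in Tnmd-only cells, with Myh11 at 0 and 0 CPM in Kera-only and at 45.3 and 75.2 CPM in Tnmd-only cells. Of the 136 Tnmd-only members 6 held at least 3 UMIs of Rgs5 and Myh11.

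**Figure D2:**
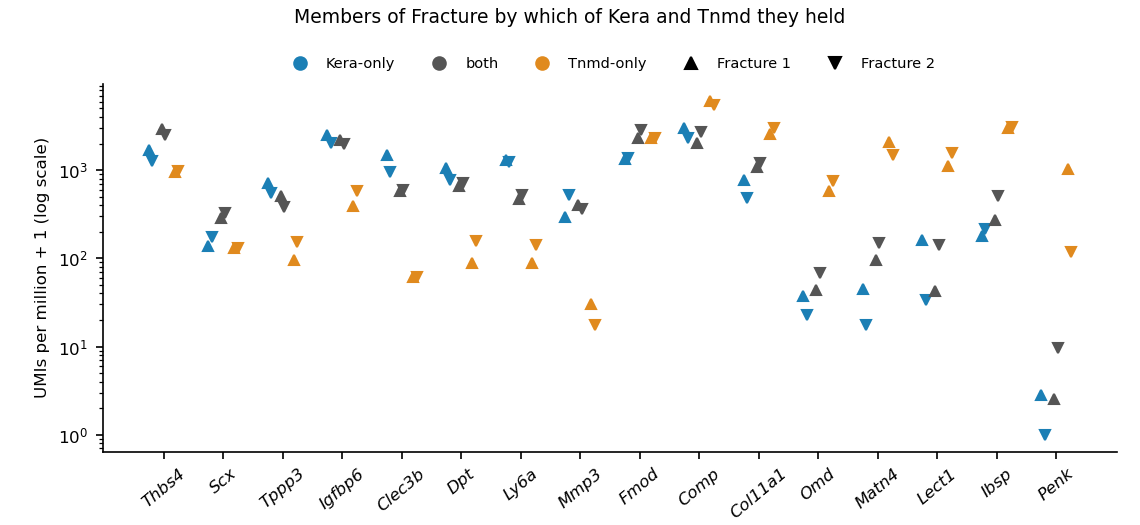
CPM of 16 genes (log axis) in Kera-only, double-positive and Tnmd-only members of Fracture, with 1 point per preparation. Clec3b, Dpt, Ly6a, Mmp3 and Tppp3 are lower in Tnmd-only than in Kera-only members, Matn4, Lect1, Omd and Ibsp are highest in Tnmd-only members, and Thbs4 and Scx are highest in members with both genes.

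Fracture was then compared with Control within the members. The same limit of 3 UMIs of Kera and Tnmd applied at a median of 5600 UMIs in Control and 9831 UMIs in Fracture members. Members were not picked again at equal depth for this comparison, and the part of the limit in the differences was not tested. In Fracture members, 4 of 9 tendon transcription factors, Scx among them, and 10 of 27 tendon matrix genes were lower. Most collagens, 13 of 16, were higher, a number that fell to 5 of 16 without the members holding Rgs5 and Myh11, and some crosslinking, protease and fibroblast genes were higher, also in smaller numbers without those members. Of 1616 genes with a mean of at least 100 CPM, 117 (7.24%) differed by at least 4-fold with values that did not overlap between the preparations, 44 higher (2.72%) and 73 lower (4.52%) in Fracture. With 4 members in Control 2 the plan had been to give values with no test. An edgeR test over all genes was added after seeing the data, and it called 541 of 8088 genes (6.69%), 292 higher (3.61%) and 249 lower (3.08%).

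A further edgeR fit left out the 15 members with at least 3 UMIs of Rgs5 and Myh11 in sum, of which 6 are in Control. It called 225 of 7929 genes (2.84%), 131 higher (1.65%) and 94 lower (1.19%), and 201 of them were among the 541. Calls were therefore fewer over all genes in that fit, and the smaller counts of single lists given below are to be read against these shares. Leaving out a preparation gave 340 calls without Control 1, 626 without Control 2, 87 without Fracture 1 and 96 without Fracture 2. The median over all genes was 0.21 for the fitted log2 difference and -0.33 for the log2 fold of plain CPM, so small differences depend on the scaling. With a preparation left out, 1 group held 1 preparation and the spread between preparations came from the other group alone. Without Control 1 the median fitted difference over all genes was 1.62, so genes higher in that fit are to be read against it.

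Scx was lower in Fracture members, at 794 and 475 CPM in Control and at 188 and 212 CPM in Fracture, 3.6-fold higher in Control in pooled CPM (log2 difference -1.50 ± 0.29, adjusted p = 5.97e-05). This did not hold at each sum of Kera and Tnmd. With 3 and 4 UMIs, Scx stood at 122 and 62.5 CPM in Control (7 and 3 cells) and at 142 and 115 CPM in Fracture. With 5 to 9 and with 10 or more UMIs it stood at 898 and 1727 CPM in Control (8 and 4 cells) and at 193 and 281 CPM in Fracture. The other tendon transcription factors called were Mkx at 61.9 and 146 CPM against 10.3 and 10.8 CPM (adjusted p = 0.00451), Meox1 at 124 and 36.5 CPM against 12.6 and 10.4 CPM (adjusted p = 0.000374) and the FGF-responsive factor Etv4 at 61.9 and 36.5 CPM against 3.44 and 1.81 CPM (adjusted p = 0.000211). These 4 of 9 measured factors were lower and none was higher. They were called without the members holding Rgs5 and Myh11 as well, with adjusted p of 1.56e-06 for Scx and 0.00114 for Mkx. Scx, Mkx and Meox1 were not called without Control 1, Fracture 1 or Fracture 2, and Mkx not without Control 2 either.

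Of 27 tendon matrix and marker genes 10 were lower and 6 higher in Fracture members, and 9 and 2 without the members holding Rgs5 and Myh11. Ptx4 fell from 495 and 219 CPM to 15.5 and 11.3 CPM, 33.1-fold in pooled CPM (log2 difference -4.72 ± 0.39, adjusted p = 2.39e-20), and Chodl from 619 and 877 CPM to 44.7 and 28.9 CPM, 18.8-fold (-3.95 ± 0.29, adjusted p = 1.25e-23). Chad fell from 1579 and 840.4 CPM to 124 and 136 CPM, 10.8-fold (-3.03 ± 0.29, adjusted p = 4.91e-16). The stretch-sensitive potassium channel Kcnk2 fell 13.1-fold (adjusted p = 0.00217), a call lost without either Control preparation. For Ptx4, Chodl and Chad the call was kept when any 1 preparation was left out.

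Thbs4 was lower in Fracture as well, at 7677 and 3909.5 CPM in Control and at 1908 and 1626 CPM in Fracture, 3.91-fold (log2 difference -1.43, adjusted p = 0.0263). Without the members holding Rgs5 and Myh11 it stood at 9725 and 7879 CPM against 1963 and 1653 CPM, a larger log2 difference of -1.81 that was not called (adjusted p = 0.11). Nor was Thbs4 called by DESeq2, or without Control 1, Fracture 1 or Fracture 2. Fmod (-0.17, adjusted p = 0.903), Comp (0.23, adjusted p = 0.853) and Tppp3 (0.47, adjusted p = 0.583) were not called, and their Control values of 4354 and 1206, 3508 and 4677 and 144 and 877 CPM overlapped with those of Fracture. The 6 higher genes of the group were Thbs2, Thbs3, Col14a1, Col11a1, Htra3 and 1500015O10Rik.

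Connective tissue growth factor (Ctgf), a target of mechanical load and TGF-beta, fell from 1589 and 585 CPM to 202 and 201 CPM, 6.80-fold (log2 difference -2.31 ± 0.31, adjusted p = 1.27e-09). Col22a1 is a collagen of tissue junctions such as the myotendinous junction, and the study used it as a marker of osteoblastic cells. It fell from 495 and 329 CPM to 21.8 and 13.6 CPM, 26.7-fold (edgeR, -4.42 ± 0.37, adjusted p = 4.21e-20). Lubricin (Prg4), which coats gliding surfaces, was at 908 and 402 CPM in Control and at 163 and 209 CPM in Fracture (adjusted p = 3.14e-06). The glucocorticoid-induced gene Tsc22d3 fell 10.0-fold, from 609 and 256 CPM to 62.5 and 45.6 CPM. None of Ctgf, Prg4 and Tsc22d3 was called without Control 1 or without Fracture 2, and Ctgf and Prg4 not without Fracture 1.

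Of 16 collagens 13 were higher in Fracture members and none was lower, with a median log2 difference of 2.13 (1.61 in plain CPM), and 5 of 16 were called without the members holding Rgs5 and Myh11. Col3a1, the collagen of early repair tissue, rose from 6573 and 2119 CPM to 23225 and 21951 CPM, 4.03-fold (log2 difference 2.62 ± 0.53, adjusted p = 0.000132), with a log2 difference of 2.29 without those members that was not called (adjusted p = 0.0965). The fibril-nucleating collagen Col5a1 rose from 433 and 73.1 CPM to 1571 and 1597 CPM, 4.48-fold (2.6 ± 0.44, adjusted p = 2.64e-06), and Col5a3 from 72.2 and 73.1 CPM to 410.0 and 368 CPM, 5.33-fold (adjusted p = 7.01e-06). Both were called without those members too, and all 3 collagens with any preparation left out. The proteoglycans Bgn, Lum and Aspn were higher by 2.40-fold, 1.71-fold and 1.97-fold, with log2 differences of 1.78, 1.48 and 1.47. Without those members the differences were 1.55, 1.2 and 1.51, and none of the 3 was called (adjusted p of 0.248, 0.393 and 0.197). Lum and Aspn lost the call without Fracture 1, and all 3 without Fracture 2.

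Enzymes that modify and crosslink collagen were higher for 8 of 24 genes and lower for 1, Tgm2, but without the members holding Rgs5 and Myh11 2 of 24 were higher and none was lower. Prolyl hydroxylase P4ha2 rose from 41.3 and 109.6 CPM to 302 and 258 CPM, 4.93-fold (log2 difference 2.57 ± 0.51, adjusted p = 7.88e-05). Lysyl oxidase (Lox) rose from 175 and 73.1 CPM to 531 and 542 CPM, 3.51-fold (2.13 ± 0.42, adjusted p = 7.2e-05). In that fit Tgm2 had a log2 difference of 0.20 (adjusted p = 0.966), and P4ha2 and Lox were called. Lox was not called without Fracture 1 or Fracture 2, nor P4ha2 without those or Control 1.

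Of 24 matrix proteases and inhibitors 10 were higher and none was lower, 5 of 24 without those members. Membrane type 1 matrix metalloproteinase (Mmp14) rose from 186 and 73.1 CPM to 959.8 and 923 CPM, 5.84-fold (log2 difference 2.88 ± 0.45, adjusted p = 2e-07). Mmp3 rose from 31.0 and 0 CPM, 3 UMIs in all, to 251 and 269 CPM, a ratio of 10.8 (95% counting interval 3.69 to 52.6, adjusted p = 2.52e-06). Collagenase 3 (Mmp13) was at 227 and 0 CPM in Control and at 480.5 and 781 CPM in Fracture (adjusted p = 7.01e-05), beside 379.9 and 371 CPM in the endothelial cells of Fracture, and the part of free RNA was not tested. Mmp14 and Mmp3 were called with any preparation left out, and Mmp13 was not called without Fracture 2.

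Fibroblast genes were higher for 9 of 20 and lower for Gsn and Fbln1, and without the members holding Rgs5 and Myh11 for 3 and 2 of 19. Kera-only members, richer in fibroblast genes, were 3 of 22 in Control and 99 of 371 in Fracture, and Tnmd-only members 15 and 136. The part of this make-up in the differences was not tested. Dermatopontin (Dpt), a collagen-binding matrix protein, rose from 61.9 and 36.5 CPM to 599 and 519 CPM, 9.84-fold (log2 difference 3.59 ± 0.51, adjusted p = 1.76e-08), and Ly6a from 92.9 and 0 CPM to 609 and 552 CPM, 7.97-fold. Among activated stroma genes, 8 of 20 were higher and 5 were lower, and 3 of 20 were higher without those members. Lrrc15 rose from 31.0 and 0 CPM, 3 UMIs in all, to 316 and 331 CPM, a ratio of 13.4 (4.59 to 65.2, adjusted p = 1.63e-07). Thy1 was at 10.3 and 0 CPM in Control, 1 UMI in all, and at 123 and 137 CPM in Fracture, a ratio of 16.2 (2.90 to 642). Dpt, Ly6a and Lrrc15 were called with any preparation left out, and Thy1 only without Control 2. The 5 lower genes were the contractile genes Acta2, Tagln, Myl9, Tpm1 and Tpm2, and none of the 5 was lower without the members holding Rgs5 and Myh11.

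Of 23 TGF-beta and BMP genes Tgfbi and Fstl1 were higher and Ctgf and Id1 lower, and of 23 growth factor genes Igf1, H19, Igfbp2, Pdgfra and Mdk were higher and none was lower. Without the members holding Rgs5 and Myh11 the TGF-beta and BMP group had 0 higher and 1 lower, and the growth factors 2 of 21 higher. Midkine rose from 61.9 and 0 CPM to 259 and 206 CPM, 4.76-fold (adjusted p = 0.000257), while Igf1, at 681 and 109.6 CPM against 1107 and 1137 CPM (log2 difference 1.49, adjusted p = 0.00711), differed by 1.33 without the members holding Rgs5 and Myh11 and was not called (adjusted p = 0.16). Of 15 inflammatory and chemokine genes 5 were higher and 3 lower, and 1 and 4 without the members holding Rgs5 and Myh11. The monocyte chemokine Ccl2 was at 0 CPM in both Control preparations and at 14.3 and 436 CPM in Fracture, so that Fracture 2 carried nearly all of it. Mdk and Igf1 were not called without Fracture 1, nor Igf1 without Fracture 2, and Ccl2 not without either Control preparation.

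Cartilage genes were higher in Fracture members for 13 of 18 and lower for none (11 of 17 without the members holding Rgs5 and Myh11), and Fracture endothelial cells moved with them. Col2a1, the main collagen of cartilage, was at 186 and 109.6 CPM in Control and at 3673 and 6126 CPM in Fracture members, but at 2327, 927, 11516 and 12146 CPM in endothelial cells. Lect1 was at 20.6 and 0 CPM, 2 UMIs in all, against 417 and 668 CPM in members, a ratio of 34.6 (9.58 to 286), and at 151, 45.3, 536 and 491 CPM in endothelial cells. Of 11 osteoblast genes 3 were higher and 1 lower (1 and 1 without the members holding Rgs5 and Myh11). Of 10 blood cell markers 4 were higher and 2 lower (4 and 1 of 9 without those members). Among the higher, Ibsp stood at 464, 36.5, 1100.3 and 1441 CPM in members and at 449, 270.0, 2453 and 2911 CPM in endothelial cells, and Hbb-bs at 10.3, 0, 483 and 826 CPM beside 487, 84.8, 2184 and 2070.2 CPM. Ibsp lost its call without Fracture 2, and the part of free RNA in these differences was not tested.

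Smooth muscle genes were lower in Fracture for 5 of 9 measured and lay in few cells. Smooth muscle myosin (Myh11) was at 898 and 2119 CPM in Control and at 17.2 and 28.9 CPM in Fracture, and at 27, 0, 0 and 0.459 CPM without the members holding at least 3 UMIs of Rgs5 and Myh11. Tagln went from 3137, 4749.9, 229 and 209 CPM to 378, 0, 143 and 144 CPM, and lost its call (adjusted p = 0.404). The summed level of the 10 smooth muscle and pericyte markers was 7130 and 12679 CPM in Control and 937 and 836 CPM in Fracture members.

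**Figure D3:**
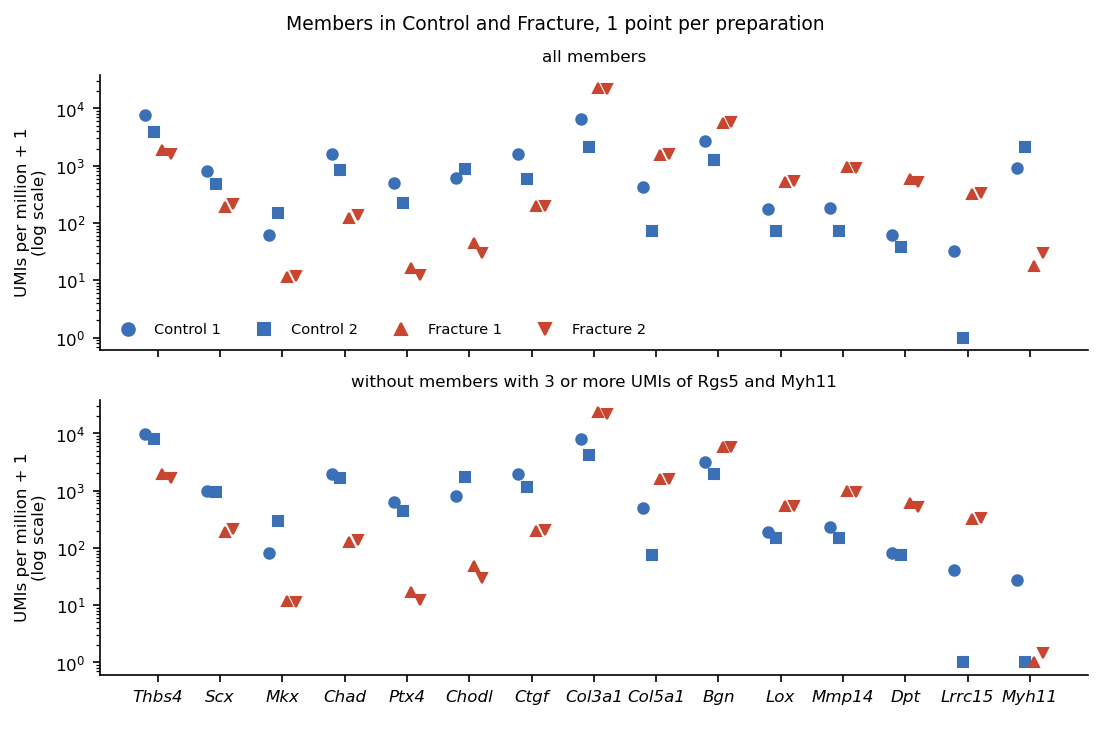
CPM of 15 genes (log axis) in members of the 2 Control and 2 Fracture preparations, with 1 point per preparation, for all members and without members holding at least 3 UMIs of Rgs5 and Myh11 in sum. Scx, Mkx, Chad, Ptx4, Chodl and Ctgf lie lower and Col3a1, Col5a1, Lox, Mmp14, Dpt and Lrrc15 higher in Fracture in both sets, whereas Myh11 nearly vanishes from Control once those members are removed.

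Cell division genes were called higher in Fracture for 7 of 21, 4 of 21 without the members holding Rgs5 and Myh11, and 16 of the 21 were at or under the limit of 3 counts in a group. Ube2c, a ubiquitin-conjugating enzyme of mitosis, was at 0 CPM in both Control preparations and at 122 and 124 CPM in Fracture, at least 5.09-fold higher. After thinning to 3000 UMIs, a UMI of Top2a or Mki67 was held by 0 of 15 and 0 of 4 Control members and by 14 of 175 (8%) and 21 of 196 (10.7%) Fracture members, 9.36% ± 1.92 (SD, n = 2) in Fracture, a difference of 9.36 points (two-sided exact permutation test, p = 0.33, the smallest possible). Without thinning the numbers were 2 of 18 (11.1%), 0 of 4, 21 of 175 (12.0%) and 30 of 196 (15.3%). When cells with 2 UMIs of Kera and Tnmd were admitted, the thinned shares were 7.14%, 10.0%, 8.19% and 9.06%, a difference of 0.0510 points (exact permutation test, p = 1), so a higher share in Fracture was not seen with that limit.

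The fracture effect in members was set against that in the Clec3b Dpt Mfap5 fibroblasts by a class-by-group term (edgeR, preparation as a block). Here too members were not picked again at equal depth, and the part of the limit of 3 UMIs was not tested. The 2 effects differed in 596 of 10148 genes (5.87%), 451 with a higher (4.44%) and 145 with a lower (1.43%) effect in members, and the median difference of effects was 0.34. Of 10 tendon transcription factors Scx, Etv4 and Meox1 had a lower effect in members, and of 28 tendon matrix genes 11 had a lower and 6 a higher effect. Scx fell in members and was higher in the Fracture than in the Control fibroblasts, at 12.3, 14.0, 98.8 and 100.4 CPM (difference of log2 effects -4.25 ± 0.46, adjusted p = 5.68e-17). For Thbs4 the difference was -2.87 ± 0.40 (adjusted p = 4.09e-10) and for Fmod, at 545.5, 11.2, 804 and 819 CPM in the fibroblasts, -1.99 ± 0.40 (adjusted p = 5.73e-05; 0.183 by DESeq2).

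Chad stood at 276, 19.6, 95.8 and 121 CPM in the fibroblasts and had a difference of effects of -2.42 ± 0.33 (adjusted p = 4.67e-11). Col22a1 stood at 6.13, 0, 5.55 and 12.2 CPM there (-5.53, adjusted p = 1.09e-11). Col3a1, at 11170.0, 5162, 19211 and 18759 CPM in the fibroblasts, had a larger rise in members (1.77 ± 0.41, adjusted p = 0.000831). Markers of other cells differed too, with 3 of 5 endothelial and 5 of 13 blood markers showing a higher effect in members, beside the Ctla2a level of the Control fibroblasts given above. Without Fracture 1 or Fracture 2 the count was 43 and 27, and of the 6 genes named here Scx alone was called in every such fit.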

How the data were processed

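Single-cell RNA sequencing of 8 libraries was used (2 Control and 2 Fracture preparations with 2 libraries each). The authors deposited UMI counts for each gene in each cell barcode, raw and without normalisation. The submitters' processing notes name bcl2fastq 2.19.1.403, UMI-tools 1.0.0, STAR 2.7.3a, featureCounts 1.6.4 and the mm10 genome, and the study's methods name STARsolo and EmptyDrops for its count matrices. Whether the counting used strand is not given in the sources used here, and reads of overlapping genes may be shared. Gene positions are from GENCODE M21 (GRCm38).

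Cells, members and comparison cells were selected as described in the results. The Clec3b Dpt Mfap5 and Prg4 fibroblasts passed the filters and exclusions of the members, held 0 UMIs of Kera and Tnmd, and held at least 3 UMIs of Clec3b, Dpt and Mfap5 in sum with fewer than 3 of Prg4, or at least 3 UMIs of Prg4. The members, the 28 gene lists and the comparisons were chosen with earlier results of these data known. UMI counts were summed per class and preparation and compared with edgeR 4.0.16 (TMM, filterByExpr, glmQLFit without robust estimation, Benjamini-Hochberg over all genes tested, calls at an adjusted p under 0.05) in R 4.3.3 with limma 3.58.1. Genes that picked the cells were left out of the calls. CPM in the text are plain, per 1000000 UMIs of the summed cells. Named genes were the 10 largest rises and falls (5 outside the comparison of Fracture with Control) among called genes with non-overlapping preparations and a mean of at least 20 CPM, leaving out other cells' markers and haemoglobin, and up to 4 called members of each list. Tendon markers and free-RNA genes are given beside them.

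For shares, exact permutation tests over preparations were used, two-sided (scipy 1.17.1), and intervals are exact binomial at 95%. With counts of 1 to 3 on a side, ratios carry an exact counting interval. Depth-matched shares used cells thinned to 3000 UMIs, with shallower cells left out. Doublets were called with scrublet in scanpy 1.11.5 at an expected 6%, marked 805 cells (1.78%), and were kept outside an alternative. Preparation numbers were not read as pairs between Control and Fracture, since same-numbered preparations had deviations that correlated at 0.0589 over 1621 genes. Classes of cells from the same preparation were compared with the preparation as a block.

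Alternatives were DESeq2 1.42.0, RLE size factors, no filter on low counts, each preparation left out, the block added or removed, limits of 2 or 5 UMIs of Kera and Tnmd, a UMI of both, cells of at least 3000 UMIs, and no doublets. The edgeR test of Fracture against Control, the fits without members holding Rgs5 and Myh11 and those of the Fracture preparations alone were added after seeing the data. The tests were tried on simulated counts. Further tools were numpy 2.4.6, matplotlib 3.10.9 and pandas 2.3.3 under Python 3.11.15.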

Additional observations from a re-analysis of the deposited data

Results flagged for a closer look

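The fracture effect differed between tendon-like cells and Clec3b Dpt Mfap5 fibroblasts in 596 of 10148 genes (5.87%) by the class-by-group term of edgeR. Of the genes named in the results, Scx had a difference of log2 effects of -4.25, Thbs4 of -2.87, Chad of -2.42, Fmod of -1.99, Col22a1 of -5.53 and Col3a1 of 1.77, each as the effect in members minus that in the fibroblasts. The Control fibroblasts held 88 cells and the Control members 22, and summed endothelial markers in the Control fibroblasts were 2656 and 3618 CPM, of which Ctla2a made up 2241 and 2843 CPM. The part of these transcripts in the differences was not tested, nor that of the fixed limit of 3 UMIs with deeper Fracture members. Among the Control libraries 1 held 0 members, which allows up to 0.0736%, beside 0.104% to 0.155% in the other 3, a gap too small to set it apart by Dixon's test.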

How the results depend on the processing

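Of the values of single named genes under all alternatives, 1741 were counted as unchanged, and 297 lost and 38 gained a call. A change of sign was counted only for a gene called in the main fit or the alternative. Changes of sign of genes called in neither are among the 1741. All 371 Fracture members held at least 3000 UMIs, so that alternative repeated the main fit for Kera-only against Tnmd-only cells (48 of the 1741). The counted changes of sign were 5. For Fracture against Control they were Fmod without Control replicate 1 (1.58, and -0.76 without Control replicate 2) and Tagln with a UMI of both genes (9.17). Tgm2 changed there with a UMI of both genes (6.75) and without members holding Rgs5 and Myh11 (0.20). Chad changed in the difference of fracture effects with a UMI of both genes (0.50). With a UMI of both genes Control held 4 members, all in Control 1. The median log2 difference over all genes was then 5.78 for Fracture against Control and 6.01 for the difference of fracture effects. Without Control replicate 1 the median for Fracture against Control was 1.62. The changes of sign are to be read against these medians, and their cause was not tested.

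The 541 genes called in Fracture against Control became 1141 with a limit of 2 UMIs of Kera and Tnmd, 246 with 5, 260 with a UMI of both genes, 225 without members holding Rgs5 and Myh11, and 87 to 626 when a preparation was left out. The replicate block gave 269, all among the 541, and since the numbers do not pair the preparations this was not read as a weaker effect. The 117 genes past 4-fold became 199 with 2 UMIs and 203 with a UMI of both, and 110 to 156 with a preparation left out.

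The 51 genes called against Clec3b Dpt Mfap5 fibroblasts became 120 with DESeq2, 521 with no filter on low counts, 1 with a limit of 2 UMIs, 260 with 5, 386 with a UMI of both, 248 without members holding Rgs5 and Myh11, 1056 in Fracture alone and 0 to 217 with a preparation left out. With no replicate block edgeR called 0 (480 at an unadjusted p under 0.05). Fits without members holding Rgs5 and Myh11 left out such cells from the members only, here and in the comparisons below. Before thinning, Myh11 was found in 19.4% of the Clec3b Dpt Mfap5 fibroblasts of Control 1 and in 0% of those of Control 2. The 487 against Prg4 fibroblasts became 244 with DESeq2, 892 with no filter, 91 with 2 UMIs, 754 without those members, 27 with no replicate block, 1594 in Fracture alone and 265 to 759 with a preparation left out. The 596 genes of the difference of effects became 162 with DESeq2, 999 with 2 UMIs, 335 with 5, 218 with a UMI of both, 384 without those members and 27 to 591 with a preparation left out. The 841 between Kera-only and Tnmd-only cells became 209 with DESeq2 and 805 with no replicate block, and no preparation could be left out, since no residual degrees of freedom remain.

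The share difference of 1.41 points became 1.65 with neither Ptprc nor Cdh5 cells in the denominator, 1.77 with a limit of 2 UMIs, 0.968 with 5, 0.564 with a UMI of both genes and 0.615 with cells thinned first, and 1.36 to 1.45 with a preparation left out. The difference of 9.36 points in cycling members became 0.0510 with 2 UMIs and 6.17 with a UMI of both genes, and 8 to 10.7 with a preparation left out. The 124286 UMIs of the Control members set the limit of what could be measured there.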

Other observations

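Other gene groups of the Fracture members held some calls, to be read beside the 6.69% called over all genes. Of 24 endoplasmic reticulum and secretory genes Ssr4 and Kdelr3 were higher and Herpud1 was lower than in Control, of 16 glycolysis genes Ldha alone was higher, and of 23 mechanosensing and cytoskeletal genes the tubulins Tubb2a and Tubb6 were higher and the actin crosslinker Flna was lower. Of 15 elastic fibre genes Fbn1, Fbn2 and Mfap5 were higher and Fbln1 and Mfap4 lower. Of 11 marrow stromal genes Kitl and Lpl were lower and none was higher, with a median log2 difference of -0.85, and of 23 immediate early genes Junb, Btg2 and Hspb1 were lower and none was higher, with 6 of the 23 above 0. Without the members holding Rgs5 and Myh11, the genes called higher and lower were 0 and 1 of the 24 secretory genes, 0 and 0 of the 16 glycolysis genes, 1 and 0 of 22 mechanosensing genes, 1 and 3 of the 15 elastic fibre genes, 0 and 1 of 9 marrow stromal genes and 1 and 0 of the 23 immediate early genes (edgeR). Btg2 was not among them (adjusted p = 0.466).

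Several genes were at 0 CPM in both Control preparations of the members and present in both Fracture preparations. They are to be read beside all 8088 genes tested, of which 2083 were under 3 counts in a group. Control members held 124286 UMIs and Fracture members 3957793. The metalloprotease Adam12 stood at 103 and 116 CPM in Fracture, at least 4.56-fold above the limit of 3 counts over the Control group, the homeobox gene Barx2 at 95.2 and 101 CPM, at least 4.08-fold, and the iron exporter Slc40a1 at 94.0 and 123 CPM, at least 4.56-fold. The pentraxin Ptx3 stood at 59.6 and 109.8 CPM, at least 3.63-fold, and the hyaluronan synthase Has1 at 53.3 and 53.3 CPM, at least 2.21-fold.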
